A study of Mus musculus with 10 samples.

Results

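Levels of 10 genes of the primed epiblast were followed over all 10 libraries of a mouse embryonic stem cell series. The genes were chosen by name, as transcription factors and markers that are commonly used for this state, and they are 10 of the 30460 genes listed. They are the transcription factors Otx2, Foxd3, Zic2, Zic5, Pou3f1 and Sox3, the Wnt pathway genes Lef1 and Sfrp2, and the growth factor genes Fgf5 and Fgf15. RNA was sequenced from embryonic stem cells of strain C57BL/6 in 3 libraries labelled Mga-/- (here the Mga-labelled libraries), 2 labelled L3mbtl2-/-, 2 labelled Pcgf6-/- and 3 from wild type cells, and the question was how each knockout differs from wild type. All cells carried the same strain label, and no agent or time point is given. The labels do not say whether replicates were separate clones or cultures, and the spread behind each p-value may therefore be technical.

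Pluripotent cells pass from a naive state, like the epiblast before implantation, to a primed state, like the epiblast after it. Embryonic stem cells in culture hold mostly naive cells, and OTX2, ZIC2, POU3F1 and FOXD3 are known for acting at the enhancers that open during the passage to the primed state, while FGF5 is its classical marker. MGA, L3MBTL2 and PCGF6 are subunits of 1 chromatin repressor, the Polycomb complex PRC1.6. In it MGA, paired with MAX, binds E-boxes and through its T-domain T-box sites, and E2F6 binds E2F sites.

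The promoters of Foxd3 and Lef1, both higher in all 3 groups labelled knockout, and of Otx2, which moved in opposite directions, are shown because those genes carry the main contrasts. Each sequence is the 250 bases before a RefSeq transcription start (build GRCm38.p6), 5′ to 3′ on the strand of the gene, and capitals mark the E-box CACGTG. The Foxd3 window lies at chr4:99656049-99656298 on the plus strand. The Lef1 window lies at chr3:131156044-131156293 on the plus strand, before a start inside the gene. It is shown as the only Lef1 window that holds the E-box, and it does not lie at the annotated start of the gene. The Otx2 window lies at chr14:48667645-48667894 on the minus strand. None of the 3 windows overlaps an annotated exon.
Foxd3: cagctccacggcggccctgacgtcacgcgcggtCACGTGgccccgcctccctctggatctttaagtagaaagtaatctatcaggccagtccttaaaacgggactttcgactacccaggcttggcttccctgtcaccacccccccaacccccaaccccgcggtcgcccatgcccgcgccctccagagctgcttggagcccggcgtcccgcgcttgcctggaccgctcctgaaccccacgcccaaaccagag
Lef1: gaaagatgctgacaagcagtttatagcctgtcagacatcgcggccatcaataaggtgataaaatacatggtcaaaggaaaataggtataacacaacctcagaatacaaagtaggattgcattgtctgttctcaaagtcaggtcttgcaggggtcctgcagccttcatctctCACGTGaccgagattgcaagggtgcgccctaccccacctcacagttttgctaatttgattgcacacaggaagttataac
Otx2: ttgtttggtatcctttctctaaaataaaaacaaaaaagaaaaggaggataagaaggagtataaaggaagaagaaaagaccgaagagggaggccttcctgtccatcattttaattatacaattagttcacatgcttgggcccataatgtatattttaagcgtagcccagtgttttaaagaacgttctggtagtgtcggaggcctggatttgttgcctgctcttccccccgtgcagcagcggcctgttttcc
The E-box began 217 bases before the start in Foxd3 and 79 bases before it in Lef1, and its letters do not occur in the Otx2 window or in the other 3 Lef1 windows. The E-box reads the same on both strands, and 6.02% of all 32851 RefSeq windows of this length hold it. The T-box letters TCACACCT and the E2F letters TTCCCGC, searched on both strands (AGGTGTGA and GCGGGAA), occur in 1.12% and 3.82% of all windows and in none of those of the 6 genes that have a window. The Foxd3 window was rich in G and C, at 65.6%, with 21 CpG sites, against a median of 52.4% and 6 sites over all windows. The Lef1 window shown had 44.8% G and C, and the Otx2 window 42.0%. The Lef1 windows before the annotated start of the gene had 66.4% G and C, with 11 and 14 CpG sites. They overlap an exon of the antisense gene Gm43352. The remaining Lef1 window, inside the gene, had 50.8%. A match describes these letters only, and no binding was measured here.

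The classical primed marker was low and naive genes were high. Fgf5 lay at or below 0.776 FPKM (fragments per kilobase of gene and per unit of depth, a level scaled to gene length) in every library. All 17 genes of a naive pluripotency list averaged at least 1 FPKM in each of the 4 groups, and their summed level was 1391 to 2003 FPKM in the Mga-labelled libraries, 1748 to 1759 FPKM in L3mbtl2 knockout, 1265 to 1272 FPKM in Pcgf6 knockout and 1125 to 1225 FPKM in wild type. The 10 genes are therefore described by name, and no cell state is read from them. Among the libraries, depth was 19.4 to 26.7 in units of 1e6 reads. The Mga gene itself was at 8.03, 19.6 and 11.2 FPKM in Mga-labelled replicates 1, 2 and 3. In wild type it averaged 18.5 ± 1.30 FPKM (SD, n = 3). Its log2 fold change of -0.61 ± 0.26 (SE) did not pass in the limma test described below (adjusted p = 0.0987). Replicate 2 thus held a wild type level of Mga RNA, and whether the gene is disrupted in that library was not tested. Where the 3 groups labelled knockout are counted together, that library is included by its label. L3mbtl2 averaged 3.60 ± 0.162 FPKM in its knockout (SD, n = 2) and 20.2 ± 0.382 FPKM in wild type (SD, n = 3). Pcgf6 averaged 9.69 ± 0.182 FPKM in its knockout (SD, n = 2) and 28.9 ± 1.13 FPKM in wild type (SD, n = 3). The Mga-labelled libraries also spread more, with a median within-group SD of 0.338 on the log2 scale, against 0.064 in L3mbtl2 knockout, 0.067 in Pcgf6 knockout and 0.086 in wild type.

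**Figure D1:**
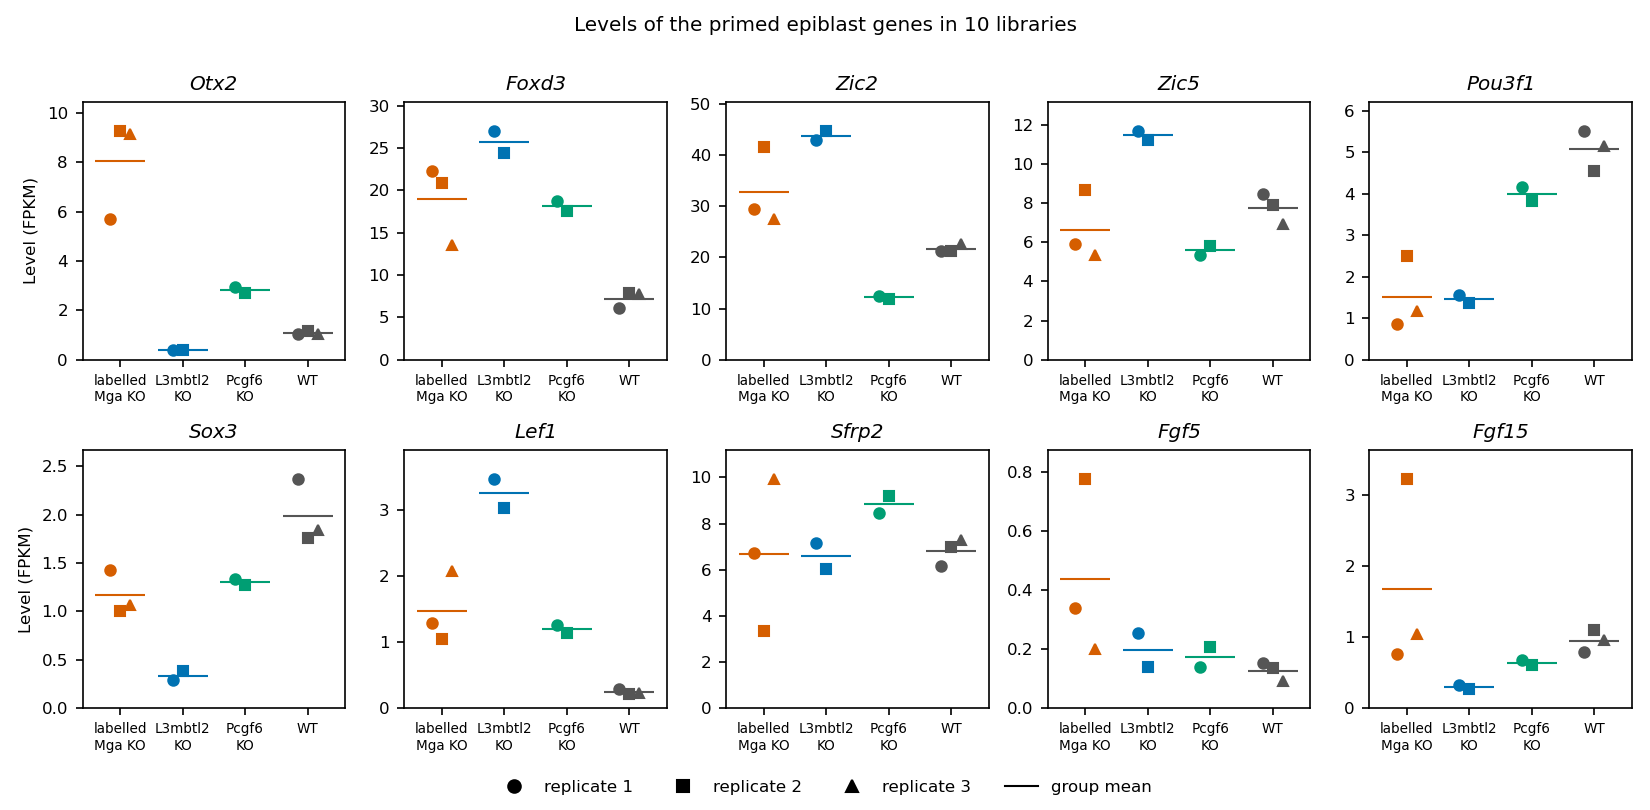
Level of each primed epiblast gene in FPKM (vertical axes, linear, from 0) in the 10 libraries by group, with 1 point per library, the marker giving the replicate number and a line at the group mean. Foxd3 and Lef1 sit higher than in every wild type library in the 3 Mga-labelled libraries and in both libraries each of L3mbtl2 knockout and Pcgf6 knockout, while Otx2 is higher than wild type in the Mga-labelled libraries and in Pcgf6 knockout and lower in L3mbtl2 knockout.

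Otx2, a homeodomain factor of the primed epiblast and later of the forebrain, moved in opposite directions between the groups labelled knockout. Its level was 5.70, 9.28 and 9.15 FPKM in the Mga-labelled libraries, 0.397 and 0.409 FPKM in L3mbtl2 knockout, 2.94 and 2.69 FPKM in Pcgf6 knockout and 1.05, 1.17 and 1.05 FPKM in wild type. None of the 4 groups overlapped another. Relative to wild type the group mean was 7.39 times as high in the Mga-labelled libraries, 2.59 times as high in Pcgf6 knockout and 0.370 times in L3mbtl2 knockout. In limma's test on log2(FPKM + 0.1), with p adjusted over all 15731 genes tested and a threshold of 0.05, Otx2 rose by 2.74 ± 0.20 (log2, SE) in the Mga-labelled libraries (adjusted p = 4.2e-05) and by 1.29 ± 0.22 in Pcgf6 knockout (adjusted p = 0.00965). In L3mbtl2 knockout it fell, at -1.24 ± 0.22 (adjusted p = 0.00296). The differences between the knockouts passed as well. Otx2 was higher in the Mga-labelled libraries than in L3mbtl2 knockout, by 3.98 ± 0.22 (adjusted p = 1.71e-05), and than in Pcgf6 knockout, by 1.45 ± 0.22 (adjusted p = 0.0034). Between L3mbtl2 knockout and Pcgf6 knockout the difference was -2.53 ± 0.24 (adjusted p = 0.000419). In these bulk samples, fewer cells with Otx2 and less Otx2 RNA per cell cannot be told apart, and the same holds for each gene below. With a pseudocount of 1 the value in L3mbtl2 knockout against wild type was -0.57 and that against Pcgf6 knockout -1.44, and both still passed. The gene (ENSMUSG00000021848) lies on the minus strand of chromosome 14, 48657677 to 48673819 (GRCm38). The overlapping antisense gene Otx2os1, whose reads the library kit does not separate by strand, reached at most 0.314 FPKM.

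Foxd3, a forkhead factor of pluripotent and neural crest cells, rose in all 3 groups labelled knockout. It was at 22.3, 20.9 and 13.6 FPKM in the Mga-labelled libraries, at 27.1 and 24.4 FPKM in L3mbtl2 knockout, at 18.8 and 17.5 FPKM in Pcgf6 knockout and at 6.07, 7.86 and 7.75 FPKM in wild type. All 3 Mga-labelled libraries and all libraries of L3mbtl2 knockout and Pcgf6 knockout lay above every wild type library, and the Mga-labelled libraries overlapped those of Pcgf6 knockout. The rise was 1.36 ± 0.19 (log2, SE) in the Mga-labelled libraries (adjusted p = 0.000934), 1.83 ± 0.21 in L3mbtl2 knockout (adjusted p = 0.00041) and 1.33 ± 0.21 in Pcgf6 knockout (adjusted p = 0.00726). No difference in Foxd3 between knockouts passed. Foxd3 (ENSMUSG00000067261) has 1 exon and lies on the plus strand of chromosome 4, 99656299 to 99658622, downstream of the window shown above.

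Zic2 and Zic5, zinc finger factors of the epiblast and neural plate, lie beside each other on chromosome 14 on opposite strands. Zic2 (ENSMUSG00000061524, 122475435 to 122479852, plus strand) was at 29.4, 41.6 and 27.5 FPKM in the Mga-labelled libraries, at 42.9 and 44.8 FPKM in L3mbtl2 knockout, at 12.5 and 11.9 FPKM in Pcgf6 knockout and at 21.2, 21.2 and 22.6 FPKM in wild type. It was the most abundant of the 10 genes in wild type, and its 4 groups did not overlap. It rose by 0.57 ± 0.14 (log2, SE) in the Mga-labelled libraries (adjusted p = 0.0127) and by 1.01 ± 0.16 in L3mbtl2 knockout (adjusted p = 0.00163). In Pcgf6 knockout it fell, at -0.82 ± 0.16 (adjusted p = 0.0151). Against Pcgf6 knockout it was higher by 1.40 ± 0.16 in the Mga-labelled libraries (adjusted p = 0.000926) and by 1.84 ± 0.17 in L3mbtl2 knockout (adjusted p = 0.000415), while the difference between the Mga-labelled libraries and L3mbtl2 knockout did not pass (adjusted p = 0.0772). The median log2 difference from wild type over the tested genes of chromosome 14 was 0.06 to 0.43 in the Mga-labelled libraries and 0.27 in both L3mbtl2 knockout libraries. With each library centred on its chromosome medians, the Zic2 rise in the Mga-labelled libraries was 0.34 and did not pass (adjusted p = 0.205).

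Zic5 (ENSMUSG00000041703, 122456795 to 122465677, minus strand) was at 5.90, 8.70 and 5.36 FPKM in the Mga-labelled libraries, at 11.7 and 11.2 FPKM in L3mbtl2 knockout, at 5.34 and 5.83 FPKM in Pcgf6 knockout and at 8.48, 7.93 and 6.93 FPKM in wild type. Only L3mbtl2 knockout stood clear above wild type, and Mga-labelled replicate 2 lay above all wild type libraries while the other two lay below them. The gene rose by 0.56 ± 0.19 (log2, SE) in L3mbtl2 knockout (adjusted p = 0.0466), a call that was lost under 13 of 22 alternatives, at 0.29 (adjusted p = 0.379) with chromosome centring and without any 1 of the wild type, L3mbtl2 knockout or Pcgf6 knockout libraries. The log2 fold change was -0.25 ± 0.17 in the Mga-labelled libraries (adjusted p = 0.282) and -0.47 ± 0.19 in Pcgf6 knockout (adjusted p = 0.165), neither past the threshold. Without Mga-labelled replicate 2 the value was -0.45 and passed (adjusted p = 0.00694). In L3mbtl2 knockout Zic5 was higher than in Pcgf6 knockout by 1.03 ± 0.21 (adjusted p = 0.00856). The ratio of the Zic2 level to the Zic5 level averaged 4.96 ± 0.169 in the Mga-labelled libraries (SD, n = 3), 3.82 ± 0.225 in L3mbtl2 knockout (SD, n = 2), 2.19 ± 0.207 in Pcgf6 knockout (SD, n = 2) and 2.81 ± 0.399 in wild type (SD, n = 3), which describes unequal change of the pair.

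A noncoding transcript between the Zic genes followed Zic2. 2610035F20Rik (ENSMUSG00000085555, a processed transcript at 122470284 to 122475199, minus strand) lies 236 bases from Zic2 and 4607 bases from Zic5. It was at 4.03, 4.92 and 4.11 FPKM in the Mga-labelled libraries, at 7.39 and 7.44 FPKM in L3mbtl2 knockout, at 1.34 and 1.65 FPKM in Pcgf6 knockout and at 2.13, 2.21 and 2.70 FPKM in wild type, in the same order of groups as Zic2. It rose by 0.86 ± 0.14 (log2, SE) in the Mga-labelled libraries (adjusted p = 0.00223) and by 1.63 ± 0.16 in L3mbtl2 knockout (adjusted p = 0.00022). In Pcgf6 knockout it fell, at -0.62 ± 0.16 (adjusted p = 0.0433), a call lost under 13 of 22 alternatives, with an adjusted p of up to 0.296. Beside Foxd3, the noncoding gene Gm12688 (ENSMUSG00000086096, chromosome 4, 99653607 to 99654983, minus strand, 1316 bases from Foxd3) rose by 1.72 ± 0.25 in the Mga-labelled libraries (adjusted p = 0.00126) and by 1.63 ± 0.28 in L3mbtl2 knockout (adjusted p = 0.00261). In Pcgf6 knockout its log2 fold change was 0.98 ± 0.28 and did not pass (adjusted p = 0.0603). The next expressed coding genes on the outer sides, Clybl and Pcca beside the Zic pair and Alg6 beside Foxd3, did not pass in any comparison with wild type.

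**Figure D2:**
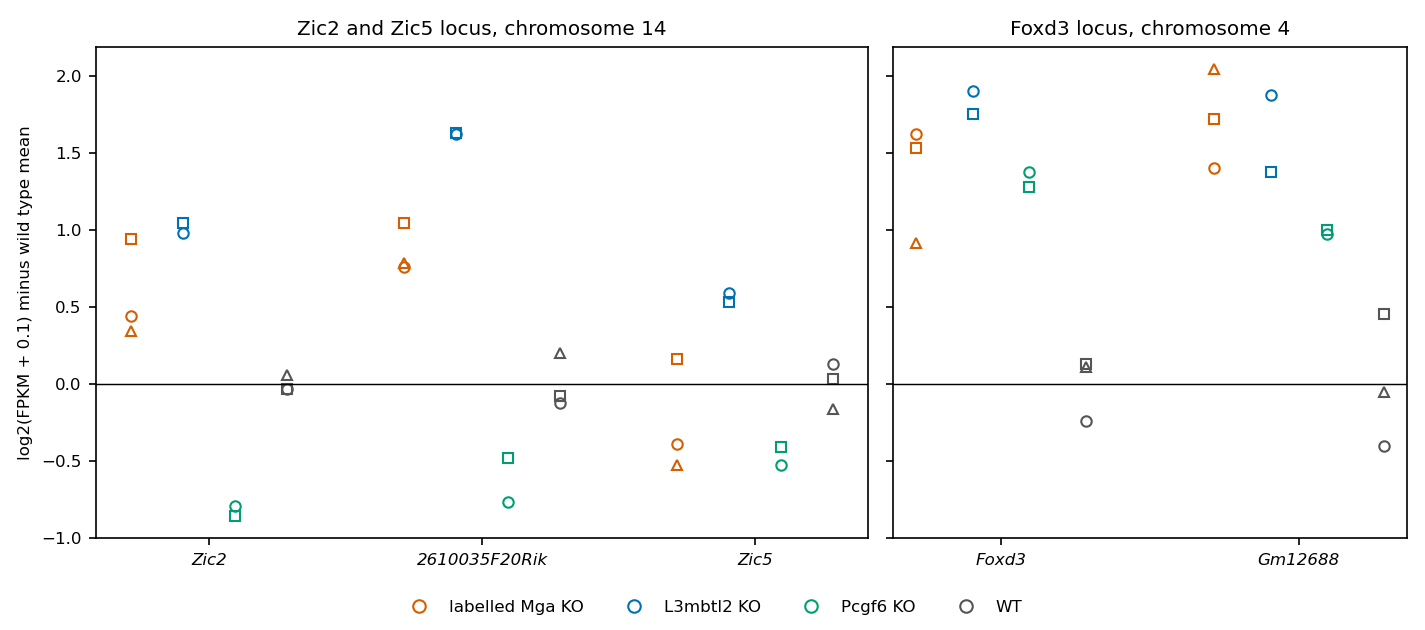
Difference of each library from the wild type mean on the log2(FPKM + 0.1) scale (vertical axis) for Zic2, 2610035F20Rik and Zic5 on chromosome 14 and for Foxd3 and Gm12688 on chromosome 4, coloured by group, with circles, squares and triangles for replicates 1, 2 and 3. Zic2 and 2610035F20Rik keep the same order of groups, with Pcgf6 knockout below wild type, and for Foxd3 and Gm12688 the Mga-labelled, L3mbtl2 knockout and Pcgf6 knockout libraries all lie above wild type.

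Pou3f1 and Sox3 were lower. Pou3f1, a POU domain factor of the epiblast that promotes neural fate, was at 0.869, 2.49 and 1.17 FPKM in the Mga-labelled libraries, at 1.56 and 1.38 FPKM in L3mbtl2 knockout, at 4.17 and 3.84 FPKM in Pcgf6 knockout and at 5.52, 4.56 and 5.16 FPKM in wild type. The 3 Mga-labelled libraries and those of L3mbtl2 knockout and Pcgf6 knockout were all below every wild type library. The gene fell with log2 fold changes of -1.81 ± 0.31 in the Mga-labelled libraries (adjusted p = 0.00272) and -1.72 ± 0.35 in L3mbtl2 knockout (adjusted p = 0.00553), while that of -0.33 ± 0.35 in Pcgf6 knockout did not pass (adjusted p = 0.611). Against Pcgf6 knockout, Pou3f1 was lower in the Mga-labelled libraries, at -1.48 ± 0.35 (adjusted p = 0.0189), and in L3mbtl2 knockout, at -1.39 ± 0.38 (adjusted p = 0.0267). Both of these calls were lost without either Pcgf6 knockout library (adjusted p = 0.104 to 0.122), and the second also without either L3mbtl2 knockout library (adjusted p = 0.0992 and 0.129). With the replicate number as a block they did not pass (adjusted p = 0.0578 and 0.052). Pou3f1 (ENSMUSG00000090125) has 1 exon on the plus strand of chromosome 4, 124656807 to 124660655.

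Sox3, an SRY-related factor of the epiblast and neural progenitors, was at 1.43, 1.0 and 1.07 FPKM in the Mga-labelled libraries, at 0.286 and 0.378 FPKM in L3mbtl2 knockout, at 1.33 and 1.28 FPKM in Pcgf6 knockout and at 2.37, 1.76 and 1.84 FPKM in wild type. L3mbtl2 knockout was lowest with no overlap, and the Mga-labelled libraries overlapped those of Pcgf6 knockout. Sox3 fell with log2 fold changes of -2.27 ± 0.23 in L3mbtl2 knockout (adjusted p = 0.00024) and -0.73 ± 0.20 in the Mga-labelled libraries (adjusted p = 0.022), and the value of -0.56 ± 0.23 in Pcgf6 knockout did not pass (adjusted p = 0.159). The call in the Mga-labelled libraries was lost without wild type replicate 1 (adjusted p = 0.0896), wild type replicate 3 (0.0542) or Mga-labelled replicate 3 (0.0519). It was also lost with only these 2 groups in the fit (adjusted p = 0.057) and with array weights by group (0.199). The differences passed between the Mga-labelled libraries and L3mbtl2 knockout, at 1.54 ± 0.23 (adjusted p = 0.0022), and between L3mbtl2 knockout and Pcgf6 knockout, at -1.71 ± 0.25 (adjusted p = 0.00207). A pseudocount of 1 gave smaller values, -1.16 in L3mbtl2 knockout and -0.46 in the Mga-labelled libraries against wild type, and 0.70 and -0.79 for these differences between knockouts, all still past the threshold. The gene (ENSMUSG00000045179) has 1 exon on the minus strand of chromosome X, 60891366 to 60893430.

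Lef1, the DNA-binding factor through which Wnt and beta-catenin activate targets, showed the largest fold change of the 9 tested members in L3mbtl2 knockout and in Pcgf6 knockout. It was at 1.28, 1.04 and 2.08 FPKM in the Mga-labelled libraries, at 3.47 and 3.04 FPKM in L3mbtl2 knockout, at 1.26 and 1.14 FPKM in Pcgf6 knockout and at 0.281, 0.204 and 0.218 FPKM in wild type. The Mga-labelled libraries and those of L3mbtl2 knockout and Pcgf6 knockout lay above wild type, and those of L3mbtl2 knockout above all others. The group mean was 6.27 times the wild type mean in the Mga-labelled libraries, 13.9 times in L3mbtl2 knockout and 5.12 times in Pcgf6 knockout. On the log2(FPKM + 0.1) scale, which understates folds at such low levels, Lef1 rose by 2.18 ± 0.25 (adjusted p = 0.000423), 3.33 ± 0.28 (adjusted p = 0.000115) and 1.96 ± 0.28 (adjusted p = 0.00531) in these groups. With a pseudocount of 1 the values were 0.98, 1.78 and 0.83, and all still passed. The difference between the Mga-labelled libraries and L3mbtl2 knockout was -1.15 ± 0.28 (adjusted p = 0.0209), lost without either L3mbtl2 knockout library (adjusted p = 0.154 and 0.1). That between L3mbtl2 knockout and Pcgf6 knockout was 1.37 ± 0.31 (adjusted p = 0.0127), lost without any 1 library of these groups (adjusted p = 0.061 to 0.0898). Lef1 (ENSMUSG00000027985) lies on the plus strand of chromosome 3, 131110471 to 131224356.

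Sfrp2, a secreted protein that binds Wnt ligands, did not pass in any comparison. It was at 6.72, 3.34 and 9.94 FPKM in the Mga-labelled libraries, at 7.16 and 6.05 FPKM in L3mbtl2 knockout, at 8.48 and 9.18 FPKM in Pcgf6 knockout and at 6.16, 7.0 and 7.28 FPKM in wild type. Only Pcgf6 knockout lay wholly above wild type, by 0.37 ± 0.36 on the log2 scale (adjusted p = 0.579, not past the threshold). With only these 2 groups in the fit, or with array weights, that value passed (adjusted p = 0.0265 and 0.0353). The Mga-labelled libraries spanned the levels of all other groups.

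The growth factor genes were low. Fgf15, an FGF of the epiblast and brain, was at 0.758, 3.22 and 1.04 FPKM in the Mga-labelled libraries, at 0.326 and 0.264 FPKM in L3mbtl2 knockout, at 0.666 and 0.599 FPKM in Pcgf6 knockout and at 0.786, 1.1 and 0.956 FPKM in wild type. L3mbtl2 knockout and Pcgf6 knockout lay below wild type, and Mga-labelled replicate 2, the one with a wild type level of Mga, lay far above all others. No comparison with wild type passed, with log2 fold changes of 0.51 ± 0.45 in the Mga-labelled libraries (adjusted p = 0.394), -1.40 ± 0.50 in L3mbtl2 knockout (adjusted p = 0.0532) and -0.50 ± 0.50 in Pcgf6 knockout (adjusted p = 0.587). Without Mga-labelled replicate 2, the L3mbtl2 knockout value passed (adjusted p = 0.0014), in a fit where all groups share 1 estimate of the spread. It also passed without replicate 1 of those libraries (adjusted p = 0.0246). Fgf15 was higher in the Mga-labelled libraries than in L3mbtl2 knockout by 1.91 ± 0.50 (adjusted p = 0.0265), a call lost when either L3mbtl2 knockout library was left out (adjusted p = 0.118 and 0.153) and with a pseudocount of 1 (0.93, adjusted p = 0.0642).

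Fgf5 was at 0.339, 0.776 and 0.20 FPKM in the Mga-labelled libraries, at 0.253 and 0.139 FPKM in L3mbtl2 knockout, at 0.138 and 0.206 FPKM in Pcgf6 knockout and at 0.151, 0.135 and 0.0902 FPKM in wild type. These are 21, 47 and 12 reads, 15 and 8 reads, 8 and 10 reads, and 9, 9 and 6 reads in the same order. Only 1 library reached the 0.5 FPKM that 2 libraries needed for testing, and that library was again Mga-labelled replicate 2. With every gene above 0 tested, the log2 fold change in the Mga-labelled libraries was 1.12 ± 0.41 and did not pass (adjusted p = 0.0914).

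Counted together, 9 of the 10 genes were tested, and they changed in both directions in each group labelled knockout. In the Mga-labelled libraries 4 rose and 2 fell, while 39.5% of all tested genes passed in that comparison, 22.8% higher and 16.7% lower. In L3mbtl2 knockout 4 rose and 3 fell, while 40.0% of all tested genes passed, 23.4% higher and 16.7% lower. Under median-of-ratios or upper-quartile scaling the split in L3mbtl2 knockout was 3 and 4, with Zic5 no longer passing and Fgf15 passing. The split over all tested genes moved the same way, to 18.8% higher and 20.7% lower with the first scaling and 18.8% and 20.6% with the second. In Pcgf6 knockout 3 rose and 1 fell, while 10.1% of all tested genes passed, 5.45% higher and 4.62% lower. All 4 of those calls were lost without either Pcgf6 knockout library (0 passed, adjusted p = 0.0614 to 0.134), in fits where 1.16% and 0.998% of all tested genes passed. The Zic2 call was also lost without any 1 wild type library (adjusted p = 0.0547 to 0.0601). Without Mga-labelled replicate 2, 7 of the 9 passed in the Mga-labelled libraries, 8 in L3mbtl2 knockout and 5 in Pcgf6 knockout, beside 55.1%, 54.2% and 25.2% of all tested genes. The median log2 fold change of the 9 genes was 0.51, -0.05 and -0.33 in the Mga-labelled libraries, in L3mbtl2 knockout and in Pcgf6 knockout, beside 0.10, 0.13 and 0.04 over all tested genes. In size without sign, the medians were 0.73, 1.40 and 0.56, beside 0.43, 0.50 and 0.27.

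Between knockouts, 5 of the 9 passed between the Mga-labelled libraries and L3mbtl2 knockout (22.8% of all tested genes), 3 between the Mga-labelled libraries and Pcgf6 knockout (22.6%) and 6 between L3mbtl2 knockout and Pcgf6 knockout (30.5%). The first count was 2 without either L3mbtl2 knockout library, where 7.58% and 8.07% of all tested genes passed, and Zic5, lower by -0.81 ± 0.19 in the Mga-labelled libraries (adjusted p = 0.0182), was among those lost. The third was 3 without either L3mbtl2 knockout library or without Pcgf6 knockout replicate 1, where 10.8%, 11.5% and 11.7% of all tested genes passed. The 3 comparisons with wild type share the wild type libraries. Across them, Otx2, Foxd3, Zic2 and Lef1 passed in all 3, Foxd3 and Lef1 rising each time and Otx2 and Zic2 in opposite directions, while Sfrp2 and Fgf15 passed in none. The share of all tested genes with the same patterns was not counted, so these patterns are not set apart from the background.

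**Figure D3:**
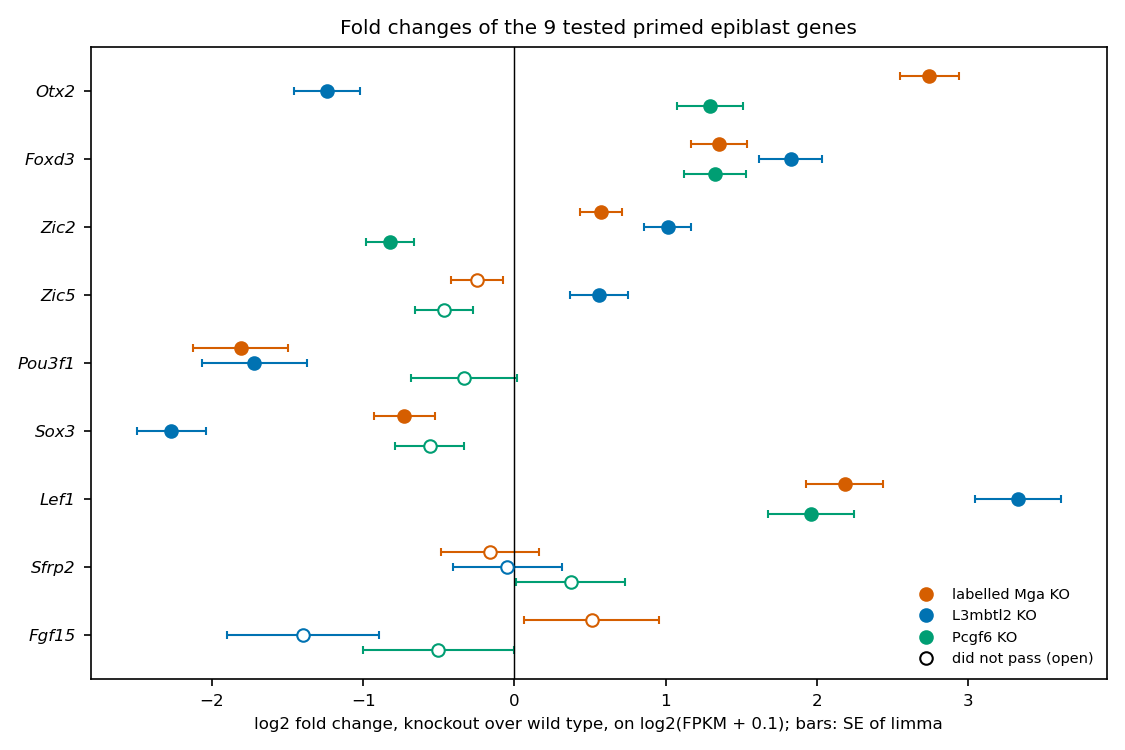
Log2 fold change over wild type (horizontal axis, log2(FPKM + 0.1) scale) of the 9 tested genes in the Mga-labelled libraries, in L3mbtl2 knockout and in Pcgf6 knockout, with bars of 1 SE from limma and filled points where the adjusted p was under 0.05. Points for Foxd3 and Lef1 lie to the right in all 3 groups labelled knockout, and those for Otx2 lie on both sides.

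Tcf7l1 and Tcf7l2, relatives of Lef1, fell in the 3 comparisons with wild type in which it rose. Lef1 belongs to the TCF family, whose other members in mouse are Tcf7, Tcf7l1 and Tcf7l2. Tcf7l1, known as a repressor of Wnt targets in embryonic stem cells, averaged 16.1 ± 5.89 FPKM in the Mga-labelled libraries (SD, n = 3), 18.9 ± 0.35 FPKM in L3mbtl2 knockout (SD, n = 2), 18.4 ± 0.109 FPKM in Pcgf6 knockout (SD, n = 2) and 35.9 ± 0.701 FPKM in wild type (SD, n = 3). Its log2 fold changes were -1.21, -0.92 and -0.96 in the 3 knockouts, and those of Tcf7l2 were -0.98, -1.29 and -0.89, all past the threshold and opposite in sign to those of Lef1. In Pcgf6 knockout both calls were lost without any 1 wild type, L3mbtl2 knockout or Pcgf6 knockout library (adjusted p = 0.0506 to 0.203), and in L3mbtl2 knockout that of Tcf7l1 was lost without either library of that group (adjusted p = 0.0764 and 0.084). The log2 fold changes of Tcf7 were -0.55, -0.22 and -0.51 in the same order, and that in L3mbtl2 knockout did not pass (adjusted p = 0.0646), although it did under 8 of 22 alternatives. The Tcf7 call in Pcgf6 knockout was lost at -0.20 with chromosome centring (adjusted p = 0.282) and without either Pcgf6 knockout library (adjusted p = 0.0904 and 0.0907).

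Around the 10 genes, gene lists of the pathways they belong to are given as counts. The counts are to be read against the 39.5%, 40.0% and 10.1% of all tested genes that passed in the Mga-labelled libraries, L3mbtl2 knockout and Pcgf6 knockout. Without 1 library those shares were 26.7% to 55.1%, 18.7% to 54.2% and 0.998% to 25.2%, and the list counts given below without 1 library moved in the same direction as these shares. Of 24 other genes of the primed state and of the formative state that leads to it, 3 rose and 6 fell in the Mga-labelled libraries, 6 rose and 9 fell in L3mbtl2 knockout, and 4 rose and 1 fell in Pcgf6 knockout. Their median log2 fold changes were 0.10, 0.01 and 0.01, beside the medians over all tested genes given above. Cldn6, a tight junction protein of the epiblast, averaged 11.2 ± 4.71 FPKM in the Mga-labelled libraries (SD, n = 3), 3.49 ± 0.327 FPKM in L3mbtl2 knockout (SD, n = 2) and 50.1 ± 3.48 FPKM in wild type (SD, n = 3), with log2 fold changes of -2.22 ± 0.23 (adjusted p = 0.00027) and -3.81 ± 0.26 (adjusted p = 4.15e-05). Dnmt3b, a DNA methyltransferase that is high in the primed epiblast, fell at -0.77 ± 0.09 (adjusted p = 0.000519) and -0.95 ± 0.10 (adjusted p = 0.000357) in the same comparisons. The counts depended on single libraries. Without Mga-labelled replicate 1, 16 of the list passed in that group in place of 9, and in L3mbtl2 knockout 8 passed without either L3mbtl2 knockout library and 9 without wild type replicate 1 or 2, in place of 15. In Pcgf6 knockout none passed without any 1 wild type or Pcgf6 knockout library, 1 passed without either L3mbtl2 knockout library, and 8 and 11 passed without Mga-labelled replicates 1 and 2.

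Genes of naive pluripotency, the state that precedes the primed one, changed mostly upward. Of 17, 12 rose and 1 fell in the Mga-labelled libraries, 14 rose and 2 fell in L3mbtl2 knockout, and 8 rose and none fell in Pcgf6 knockout, with medians of 0.75, 1.40 and 0.58. Klf4, a naive factor, averaged 130 ± 38.3 FPKM in the Mga-labelled libraries (SD, n = 3), 106 ± 1.34 FPKM in L3mbtl2 knockout (SD, n = 2), 68.4 ± 0.432 FPKM in Pcgf6 knockout (SD, n = 2) and 16.9 ± 0.301 FPKM in wild type (SD, n = 3). The Pcgf6 knockout count was 5 without either Pcgf6 knockout library and 13 without Mga-labelled replicate 2. Foxd3 and Lef1 rose in all 3 of these groups, as Klf4 and Tbx3 did, Tbx3 by 3.77, 3.76 and 2.79. Other naive genes went the opposite way. Klf2 fell past the threshold, at -1.69 in the Mga-labelled libraries and -2.31 in L3mbtl2 knockout, and at -0.67 in Pcgf6 knockout it did not pass. Dppa3 fell in L3mbtl2 knockout, at -1.78, also past the threshold.

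Wnt response genes, which include targets of LEF1, rose at 4 of 10 tested in the Mga-labelled libraries, at 5 in L3mbtl2 knockout and at 3 in Pcgf6 knockout, where 0, 1 and 0 fell, with medians of 0.68, 0.27 and 0.57. The count that passed in the Mga-labelled libraries, 4 of 10, is near the 39.5% of all tested genes that passed in either direction. All 4 rose, while 22.8% of all tested genes passed as higher and 16.7% as lower. Components of the Wnt pathway itself, with 26 tested, changed in both directions. Of these, 7 rose and 8 fell in the Mga-labelled libraries, 6 rose and 9 fell in L3mbtl2 knockout, and 2 rose and 6 fell in Pcgf6 knockout. Their medians were -0.12, -0.20 and -0.14. Axin2, a feedback inhibitor and common readout of the pathway, was at 4.28, 4.45 and 4.34 FPKM in the Mga-labelled libraries, at 3.17 and 3.33 FPKM in L3mbtl2 knockout, at 2.80 and 2.63 FPKM in Pcgf6 knockout and at 1.31, 1.09 and 1.30 FPKM in wild type. It rose by 1.74 ± 0.12 (adjusted p = 3.14e-05), 1.33 ± 0.13 (adjusted p = 0.000232) and 1.08 ± 0.13 (adjusted p = 0.00272), the last lost without Pcgf6 knockout replicate 1 (adjusted p = 0.0522). Cdx1, a homeobox target of Wnt, rose by 2.41, 2.08 and 2.84 and passed under every alternative. The order of Axin2 was not that of Lef1, which was highest in L3mbtl2 knockout. Sp5, a target of the same pathway, fell in L3mbtl2 knockout at -1.26 ± 0.34 (adjusted p = 0.0183) and rose by 1.71 ± 0.34 in Pcgf6 knockout (adjusted p = 0.0172). Both calls were lost without either library of that knockout (adjusted p = 0.0782 to 0.145), that in L3mbtl2 knockout also without wild type replicate 2 or 3 (0.0502 and 0.0589), and that in Pcgf6 knockout without any 1 wild type library (0.0514 to 0.0667). The count of Wnt response genes that passed in L3mbtl2 knockout was 3 without wild type replicate 2 or 3. In Pcgf6 knockout it was 1 without Pcgf6 knockout replicate 1, and 5 and 6 without Mga-labelled replicates 1 and 2.

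**Figure D4:**
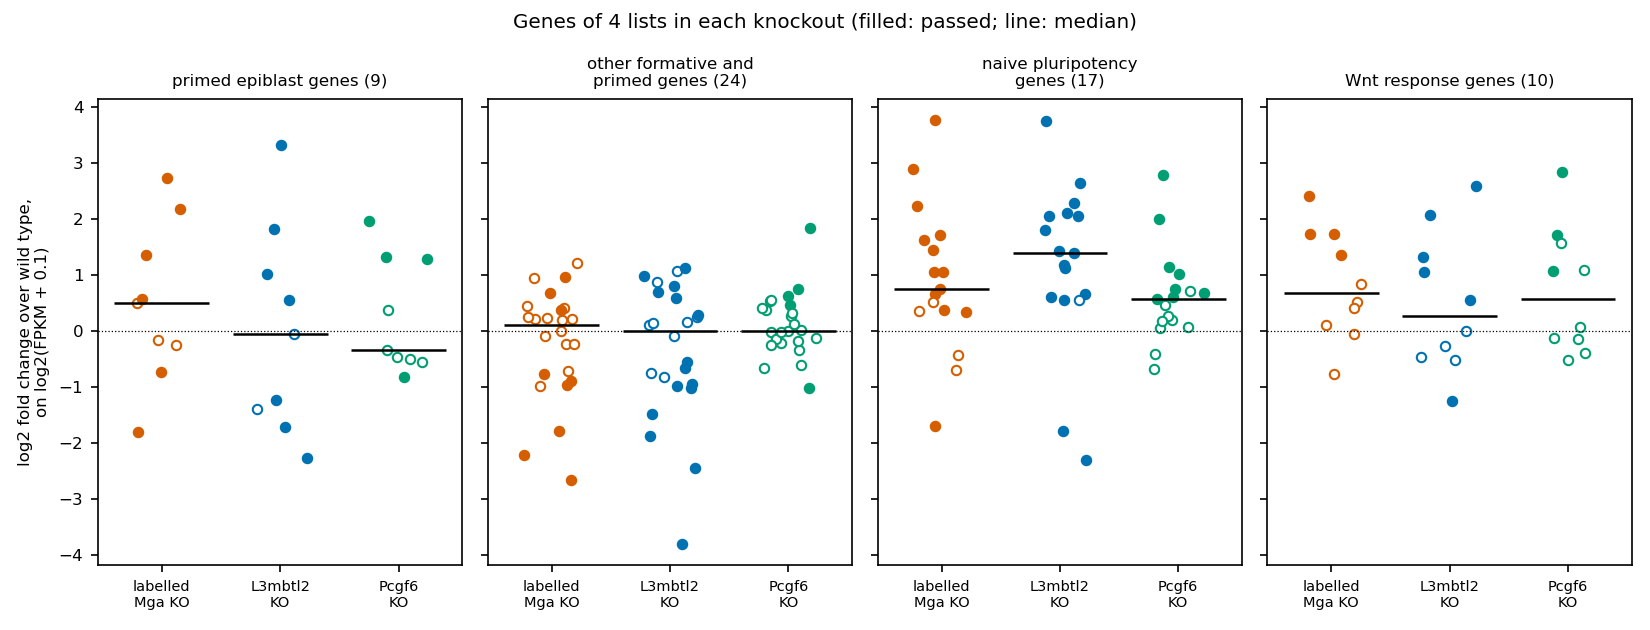
Log2 fold change over wild type (vertical axis, log2(FPKM + 0.1) scale) of each tested gene of 4 lists in the 3 knockouts, filled where the adjusted p was under 0.05, with a line at the median. The 9 primed epiblast genes and the 24 other formative and primed genes lie on both sides of 0, and most of the 17 naive genes lie above it.

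Receptors for the FGF members were measured alongside. Of 5 tested FGF receptor and co-receptor genes, 1 rose and 2 fell in the Mga-labelled libraries, 1 rose and 3 fell in L3mbtl2 knockout, and 1 rose and 2 fell in Pcgf6 knockout. Fgfr2 was at 0.941, 0.645 and 1.47 FPKM in the Mga-labelled libraries, at 0.756 and 1.06 FPKM in L3mbtl2 knockout, at 0.773 and 0.599 FPKM in Pcgf6 knockout and at 3.11, 2.82 and 2.69 FPKM in wild type. It fell in each, at -1.48 ± 0.28 (adjusted p = 0.00389), -1.58 ± 0.31 (adjusted p = 0.00466) and -1.93 ± 0.31 (adjusted p = 0.00788), and the values were -0.96, -1.03 and -1.20 with a pseudocount of 1. Leaving out L3mbtl2 knockout replicate 1 ended the second call (adjusted p = 0.0524), and the third was lost without either Pcgf6 knockout library (adjusted p = 0.0628 and 0.0993). For the whole list, 1 passed in L3mbtl2 knockout without replicate 1 of that group, and in Pcgf6 knockout none passed without either of its libraries, 1 without wild type replicate 2 and 5 without Mga-labelled replicate 2.

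Other cell types also express several of the 10 genes, and their markers varied between libraries. Of 14 neuroectoderm markers, which share a tissue with Sox3, Zic2 and Pou3f1, 6 were tested. Of these, 1 rose and 2 fell in the Mga-labelled libraries, 3 fell in L3mbtl2 knockout and 1 fell in Pcgf6 knockout. Their summed level was 77.7 to 114 FPKM in the Mga-labelled libraries, 107 to 111 FPKM in L3mbtl2 knockout, 97.7 to 100 FPKM in Pcgf6 knockout and 127 to 135 FPKM in wild type, with Hes5 at 0 in every library. The 16 fibroblast markers in the files, which mark a cell type that can hold Sfrp2, summed to 276 to 965 FPKM in the Mga-labelled libraries, where replicate 1 was highest, to 442 to 452 FPKM in L3mbtl2 knockout, to 299 to 300 FPKM in Pcgf6 knockout and to 367 to 373 FPKM in wild type. Macrophage markers, 10 in all, summed to 8.79 to 31.6 FPKM in the Mga-labelled libraries, 442 to 454 FPKM in L3mbtl2 knockout, 205 to 207 FPKM in Pcgf6 knockout and 156 to 163 FPKM in wild type. Primitive endoderm markers, 9 in all, summed to 6.67 to 13.0 FPKM in the Mga-labelled libraries, 13.1 to 13.4 FPKM in L3mbtl2 knockout, 13.4 to 14.3 FPKM in Pcgf6 knockout and 4.16 to 5.36 FPKM in wild type, higher in all 3 groups, as Foxd3 and Lef1 were. Of the 6 tested, 3, 4 and 3 rose and none fell, and Hnf4a was at 0 in every wild type library. Trophoblast markers, 9 in all, summed to 66.9 to 194 FPKM in the Mga-labelled libraries, 34.3 to 36.2 FPKM in L3mbtl2 knockout, 83.8 to 85.5 FPKM in Pcgf6 knockout and 377 to 389 FPKM in wild type, lower in all 3 groups, as the Pou3f1 and Sox3 levels were. Of the 7 tested, 3, 6 and 2 fell and none rose. Those that fell were the keratin genes Krt7, Krt8 and Krt18 in the Mga-labelled libraries, and Krt8 and Krt18 in Pcgf6 knockout. Primitive streak and mesoderm markers, 11 in all, summed to 11.9 to 15.5 FPKM in the Mga-labelled libraries, 4.41 to 4.89 FPKM in L3mbtl2 knockout, 6.21 to 6.40 FPKM in Pcgf6 knockout and 6.47 to 6.85 FPKM in wild type. The sum was highest in the Mga-labelled libraries and lowest in L3mbtl2 knockout, as Otx2 was. In Pcgf6 knockout the sum lay below wild type, while Otx2 was higher than wild type there. Of the 7 tested, 2 rose and 1 fell in the Mga-labelled libraries, 1 rose and 3 fell in L3mbtl2 knockout and 1 fell in Pcgf6 knockout, and Cer1 was at 0 in every L3mbtl2 knockout and wild type library. The part of these cells in the levels of the 10 genes was not tested.

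The genes whose levels followed a member most closely were found by Pearson's r of log2(FPKM + 0.1) over the 10 libraries, among 11310 genes. The 10 points fall into 4 genotypes and are shared by all genes, so r describes the pattern of groups. For Otx2 these were Ercc6 (r = 0.984), Atp13a1 (0.984) and Rbpms2 (0.977), and for Foxd3 they were Mllt6 (0.989), Chka (0.983) and Prr3 (0.975). For Lef1 they were Gpa33 (0.986), Trp53rka (0.984) and Epha4 (0.984), and for Pou3f1 Sec14l4 (0.992), Platr14 (0.992) and Ubald2 (0.989). For Zic2 they were Zfp951 (0.982), Hs2st1 (0.966) and Miga1 (0.958), for Zic5 Zfp986 (0.979), Ddx3x (0.973) and Zfp266 (0.968), and for Sox3 Anxa7 (0.970), Map3k9 (0.969) and Foxo4 (0.962). No member was among the 3 nearest genes of another.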

How the data were processed

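The authors deposited 1 FPKM value per gene and library. Per the submitters' processing notes, Bowtie2 2.2.3, TopHat2 2.0.12 and HTSeq 0.6.0 were used with GRCm38. The sources used here do not give how FPKM were scaled, and the unit was inferred from the values. Groups and replicate numbers follow the labels. Symbols and positions came from GENCODE M21, and promoter sequences from RefSeq (GRCm38.p6). The 10 members, the gene lists and the tests were chosen with earlier results of these data known.

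All 28713 genes above 0 gave whole reads (tolerance 0.005 read), at the M21 exon length for 77.8% of genes and at a length found from the values for 22.2%, Otx2 and Fgf15 included. At 2 kb, 1 read was worth 0.0187 to 0.0258 FPKM. Depth limits the precision of low genes such as Fgf5, and reads carry no molecular identifiers, so counting error alone is covered.

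The test was limma 3.58.1 (R 4.3.3) on log2(FPKM + 0.1) with a mean-dependent variance prior, all 10 libraries and group as the only term, for 15731 genes that reached 0.5 FPKM in 2 or more libraries, two-sided, with Benjamini-Hochberg adjustment and a threshold of 0.05. It was tested on simulated data in which all groups had the same dispersion. That simulation therefore does not cover the wider spread of the Mga-labelled libraries. In all, 6 contrasts were made. All members are named. From each other list, some of the up to 4 genes with the smallest p are named, and the naive genes that fell. Also named are the 3 genes of highest r for each member that passed, and overlapping and neighbouring genes. A gene that this rule selects is not reported here. Alternatives changed the pseudocount, filter, scaling, variance model, chromosome centring and replicate block, used limma-voom on the recovered reads, or left out 1 library.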

Additional observations from a re-analysis of the deposited data

Results flagged for a closer look

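Otx2 and Zic2 passed in opposite directions in 2 knockouts, and the difference between those knockouts also passed. For Otx2 it was 3.98 between the Mga-labelled libraries and L3mbtl2 knockout (8.04 ± 2.03 and 0.403 ± 0.00863 FPKM, SD, n = 3 and 2), and -2.53 between L3mbtl2 knockout and Pcgf6 knockout (0.403 ± 0.00863 and 2.81 ± 0.177 FPKM, n = 2 and 2). For Zic2 it was 1.40 between the Mga-labelled libraries and Pcgf6 knockout (32.8 ± 7.68 and 12.2 ± 0.406 FPKM), and 1.84 between L3mbtl2 knockout and Pcgf6 knockout (43.8 ± 1.32 and 12.2 ± 0.406 FPKM). These are log2 differences on the scale of log2(FPKM + 0.1).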

How the results depend on the processing

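Over 22 alternatives, 86 single-gene results gave 1892 values, of which 1725 kept direction and side of the threshold, 130 lost a call, 30 gained one and 7 changed sign. Under every alternative, 42 called results stayed called, among them Foxd3, Lef1, Otx2 and Pou3f1 in the Mga-labelled libraries and in L3mbtl2 knockout, and Sox3 and Zic2 in L3mbtl2 knockout. The sign changes were in results that did not pass. Sfrp2 in L3mbtl2 knockout was at 0.15 with the replicate block and ranged from -0.17 to 0.0738 with 1 library left out. It was positive when either L3mbtl2 knockout replicate 2 or wild type replicate 3 (0.0028) was left out. In the Mga-labelled libraries, Sfrp2 ranged from -0.51 to 0.26 and Fgf15 from -0.0732 to 0.90, each with the other sign without Mga-labelled replicate 2. In Pcgf6 knockout, Notum ranged from -0.22 to 0.35 and Dnmt3b from -0.0176 to 0.00214.

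Counts of members that passed moved by over 1.5 times as follows, and the cause was not tested. With only the 2 groups compared in the fit they were 7 for Pcgf6 knockout against wild type (in place of 4), 1 for the Mga-labelled libraries against L3mbtl2 knockout (5) and 0 for the same libraries against Pcgf6 knockout (3). Over all genes 6878 passed in the first of these (in place of 1584), 593 in the second (3591) and 198 in the last (3550), for which limma-voom on the recovered reads called 3454. With array weights the Pcgf6 knockout count was 7, and 7503 over all genes. With 1 library left out, the counts moved in Pcgf6 knockout against wild type and in L3mbtl2 knockout against the Mga-labelled libraries and against Pcgf6 knockout. Counts over all tested genes moved by over 1.5 times in the same comparisons. Where this left 1 library in a group, that library was assumed to vary like the other groups.

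The labels state no pairing of the samples, and same-numbered libraries showed no shared deviation from their group means. In groups of 2 libraries the deviations mirror each other, so this check holds little information. Deviations of 13 same-numbered pairs correlated at -0.02 to 0.03. With the replicate block, 992 genes passed in Pcgf6 knockout against wild type in place of 1584. Over all genes, upper-quartile scaling gave 2804 higher and 3221 lower in the Mga-labelled libraries (3588 and 2622 as deposited), 2948 and 3230 in L3mbtl2 knockout (3675 and 2622), 1447 and 2188 for the Mga-labelled libraries against Pcgf6 knockout (1887 and 1663) and 2066 and 2671 for L3mbtl2 knockout against Pcgf6 knockout (2616 and 2187). It moved the median log2 fold change of all genes to -0.01 in the Mga-labelled libraries and 0.02 in L3mbtl2 knockout, in place of 0.10 and 0.13. Among members, only the Zic2 call in the Mga-labelled libraries (adjusted p = 0.0503) and the Zic5 call in L3mbtl2 knockout (adjusted p = 0.127) were lost with it.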
